A study of Rhinolophus ferrumequinum with 8 samples.

Results

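Chaperones of the heat shock and DNAJ families were followed in whole spleen of the greater horseshoe bat, Rhinolophus ferrumequinum, across 4 states of the yearly cycle. The members are the genes whose names begin with HSPA, HSPB, HSPD1, HSPE1, HSPH1, HSP90A, DNAJA, DNAJB or DNAJC and whose mean over the 8 libraries was at least 1. Of 68 such names in the table, 6 were left out by name, among them the endoplasmic reticulum chaperones HSPA5, DNAJB9, DNAJB11 and DNAJC3. A further 8 had a mean under 1, which left 54 members of 13542 genes with a mean of at least 1 and of 19652 genes in the table. Just inside this minimum stood DNAJC28 at 1.6 and DNAJC6 at 2, and just outside it stood DNAJB7 at 0.893 and HSPA1L at 0.837.

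RNA was sequenced from whole spleens of wild females, with 2 biological replicates in each state. Summer active bats were taken in July, and the other 3 groups in November. Torpor is the phase of hibernation with low body temperature and metabolism. Arousal bats were 2 h after capture, and winter active bats were 26 h after capture. No genotype, age or agent is given in the sources used here, and nothing says that the same animals were followed over time. The November groups share their season, so season and hibernation state cannot be told apart in any comparison with summer active. A library is named by its state and replicate number, as in arousal 1.

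Heat shock proteins bind unfolded or aggregating proteins and help them fold, travel or be degraded. HSP70 proteins do this in an ATP-driven cycle: J-domain (DNAJ) proteins bring clients and start the cycle, HSP110 proteins and other exchange factors reset it, and HSP90 with its co-chaperones finishes many kinases and receptors. Small heat shock proteins hold unfolded proteins without ATP, and heat shock factor HSF1 switches on the inducible genes of all these families in mammals when proteins misfold, for example on warming. By family the members were 7 HSP70 genes, 3 HSP110 genes, 4 J-domain A genes, 8 J-domain B genes, 24 J-domain C genes, 2 HSP90 genes, the mitochondrial chaperonin HSPD1 and 5 small heat shock genes. The stress-inducible HSP70 genes HSPA1A, HSPA1B and HSPA6, and also HSPE1 and HSPB11, were not analysed here.

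Values are the deposited transcript abundances (TPM), rescaled between libraries, so levels are per length and can be set side by side between genes. The table holds no counts, so the depth behind a value is unknown. Each difference is one of log2(value + 1), a scale that shrinks the changes of low genes, and has its standard error (SE). A gene was called where the Benjamini-Hochberg adjusted p of limma over 13542 genes was under 0.05. With 2 bats a state, errors are wide, and the p-values measure the spread between these animals.

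Replicates correlated over the members at r = 0.939 to 0.983 on the log2 scale. All 7 spleen markers, among them the spleen determinant TLX1 and the red pulp macrophage factor SPIC, were detected in every library. The summed level of 9 erythroid markers was 5789 and 8744 in summer active, 140 and 89.6 in torpor, 3.96 and 7.08 in arousal and 55.7 and 6.61 in winter active. The summed level of 7 B cell markers was 2769 and 2916 in summer active and between 674 and 1448 in the 6 November libraries. Hepatocyte markers (7 genes) summed to 16983 in arousal 2, 2291 in summer active 1 and at most 998 elsewhere. Other sums stood apart in single libraries: macrophage markers were at 4338 in summer active 2 and 10414 to 18692 elsewhere, and neutrophil markers were at 12004 in torpor 1 and 699 to 3507 elsewhere. Acinar markers were highest in torpor 1 at 1416, and squamous and gastric markers reached 1617 in summer active 2 and 681 in winter active 2, against at most 23.9 elsewhere. Of 6 adipocyte markers, ADIPOQ was at 1.04 and 0.327 in summer active and 8.61 to 81.4 in the 6 November libraries. PLIN1 and CIDEA were also higher in all November libraries, while CFD, LEP and CIDEC overlapped between the seasons. Summed levels of the 54 members stayed between 2623 in summer active 1 and 3230 in arousal 1.

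Of the 54 members, 3 were called in any comparison, all in arousal against summer active, where 5.52% of all genes were called; 1 of them was also called in torpor and in winter active. DNAJB2 fell in all 3 November states relative to summer active, and DNAJB4 and DNAJC1 rose in arousal relative to summer active. No other member was called in any of the 6 comparisons. The heat map of all members shows these rows among others that differed between replicates of a state.

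**Figure D1:**
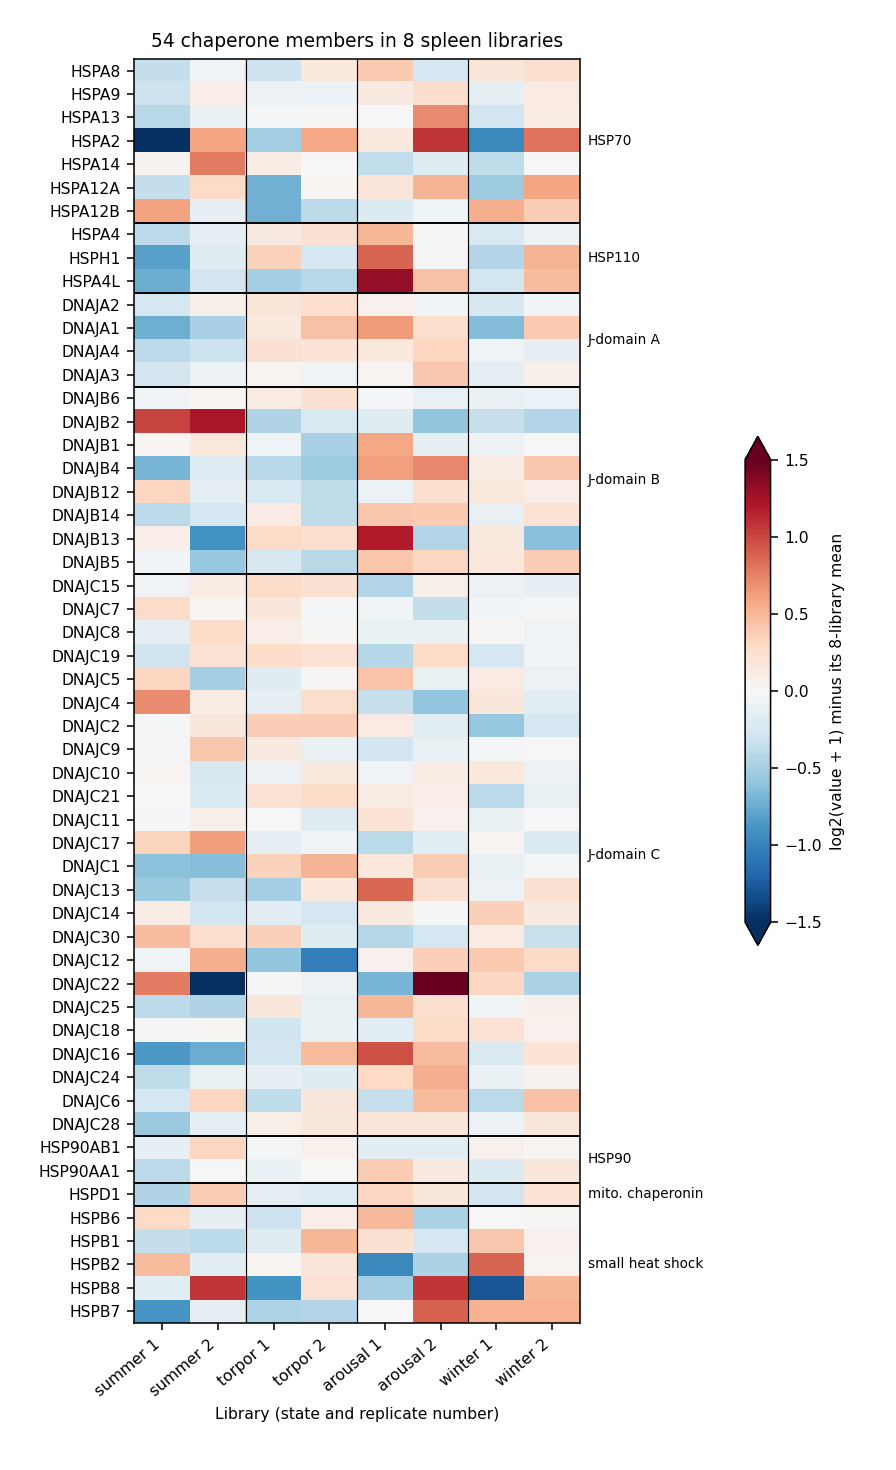
Each row is 1 of the 54 members, grouped by family and ordered by level, and each column is 1 of the 8 libraries; colour is the log2(value + 1) minus the gene's mean over the 8 libraries, cut at -1.5 and 1.5. DNAJB2 is red only in the summer active libraries, DNAJB4 is red in arousal, and HSPA2 and HSPB8 alternate between replicates 1 and 2.

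DNAJB2 (NCBI gene 117026322), also known as HSJ1, carries ubiquitin-binding motifs and directs HSP70 clients to the proteasome. Its level was 114 and 132 in summer active, 40.8 and 47.6 in torpor, 49.1 and 37.2 in arousal and 44 and 40.9 in winter active. Both summer libraries lay far above all 6 November libraries, and the 3 November states overlapped one another. The mean fell to 44.2 ± 4.82 in torpor, against 123 ± 12.5 in summer active (SD, n = 2 each; log2 difference -1.46, SE 0.21, limma adjusted p = 0.0363). The differences were -1.50 for arousal (adjusted p = 0.0175) and -1.51 for winter active (adjusted p = 0.0244), each set against the same 2 summer libraries. The test of any difference among the 4 states also passed (limma moderated F, adjusted p = 0.0424), and it missed the threshold without any 1 library (0.0801 to 0.219). It was the 1 member that passed this test, which 0.783% of all genes did.

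Leaving out each library in turn kept the direction of DNAJB2 in every fit, while the call was lost in 6, 3 and 5 of 8 fits for torpor, arousal and winter active. In the torpor comparison the adjusted p was 0.204 without summer active 2, 0.19 without torpor 1, 0.181 without torpor 2, 0.0515 without arousal 1, and 0.102 and 0.101 without winter active 1 or 2. In the arousal comparison it was 0.0995 without summer active 2, 0.0575 without arousal 1 and 0.0711 without arousal 2. In the winter active comparison it was 0.167 without summer active 2, 0.0566 and 0.0564 without torpor 1 or 2, and 0.139 and 0.24 without winter active 1 or 2. Fitting only the 2 states compared ended all 3 calls, at adjusted p = 0.121 for torpor, 0.106 for arousal and 0.101 for winter active. Setting columns to 1000000 without the 10 highest genes ended those of torpor (0.0564) and winter active (0.0522).

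The fall of DNAJB2 went with the fall of the erythroid and B cell markers, whose part in it was not tested. All 9 erythroid markers in the table passed the minimum level, of 10 looked for, and their sums in November were 3.96 to 140, against 5789 and 8744 in summer active. The alpha-like globin gene HBM was listed at 0 in arousal 1 and winter active 2. Within the November libraries DNAJB2 was between 37.2 and 49.1. Their erythroid sums all lay far under those of summer active, so these libraries alone cannot show the part of those markers in DNAJB2. In whole tissue, fewer cells of a type and less RNA per cell cannot be told apart. Of the genes beside DNAJB2 in the annotation, PTPRN was at most 1.39 in every library, and LOC117026321 was at 132 and 114 in summer active, 152 and 115 in torpor, 80.7 and 90.1 in arousal and 79 and 72.2 in winter active.

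**Figure D2:**
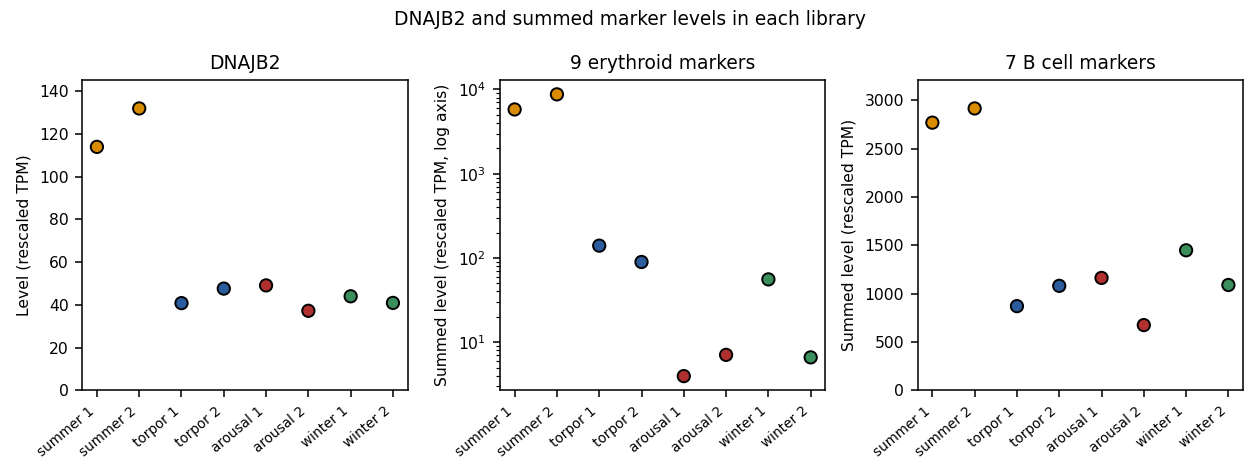
The level of DNAJB2 (left), the summed level of 9 erythroid markers on a log axis (middle) and the summed level of 7 B cell markers (right) are plotted as rescaled TPM for each of the 8 libraries, 1 point a library. All 3 panels put both summer active points highest. The November points of DNAJB2 lie between 37.2 and 49.1.

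DNAJB4 (NCBI gene 117027044), a cytosolic partner of HSP70 that is heat-inducible in human cells, stood highest in arousal. Its level was 17.4 and 24.9 in summer active, 21.2 and 19.4 in torpor, 44.7 and 47.9 in arousal and 31.2 and 38.2 in winter active. Both arousal libraries lay above all others, both winter active libraries came next, and torpor lay within the summer range. The mean was 46.3 ± 2.25 in arousal, against 21.1 ± 5.27 in summer active, 2.19-fold higher (log2 difference 1.12, SE 0.23, limma adjusted p = 0.0425). Against torpor the arousal difference was as large, 1.15, but did not pass (adjusted p = 0.142), as no gene of the table did in that comparison. Winter active differed from summer active by 0.70 (adjusted p = 0.234). The call against summer active was lost in each of the 8 fits without a library, at adjusted p from 0.0684 without torpor 1 to 0.144 without arousal 1, and the difference was 0.87 without summer active 1. It was also lost with only the 2 states fitted (0.133) and with no filter on low values (0.0615).

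DNAJC1 (NCBI gene 117019140), a J-domain protein of the endoplasmic reticulum membrane that contacts ribosomes in mammals, was lowest in summer active. Its level was 9.68 and 9.54 in summer active, 19.9 and 22.3 in torpor, 17.3 and 20.3 in arousal and 14.2 and 15 in winter active. No November library came near the summer values, and torpor and arousal overlapped each other. The mean was 18.8 ± 2.09 in arousal, against 9.61 ± 0.105 in summer active, 1.95-fold higher (log2 difference 0.90, SE 0.20, limma adjusted p = 0.047). The torpor difference from summer active was larger, 1.06, and did not pass (adjusted p = 0.0756). The arousal call was lost in each of the 8 fits without a library, at adjusted p from 0.0715 without torpor 1 to 0.151 without summer active 2. It was also lost with only the 2 states fitted (0.15) and with no filter on low values (0.0639). The erythroid and B cell sums given above differ between summer active and all November libraries, as DNAJC1 does. DNAJB4 lay above both summer libraries in arousal and winter active, with torpor within its summer range, and only its arousal difference was called. The adipocyte markers ADIPOQ, PLIN1 and CIDEA were higher in November, and hepatocyte markers were high in arousal 2. The part of all these markers in the rises of DNAJB4 and DNAJC1 was not tested.

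**Figure D3:**
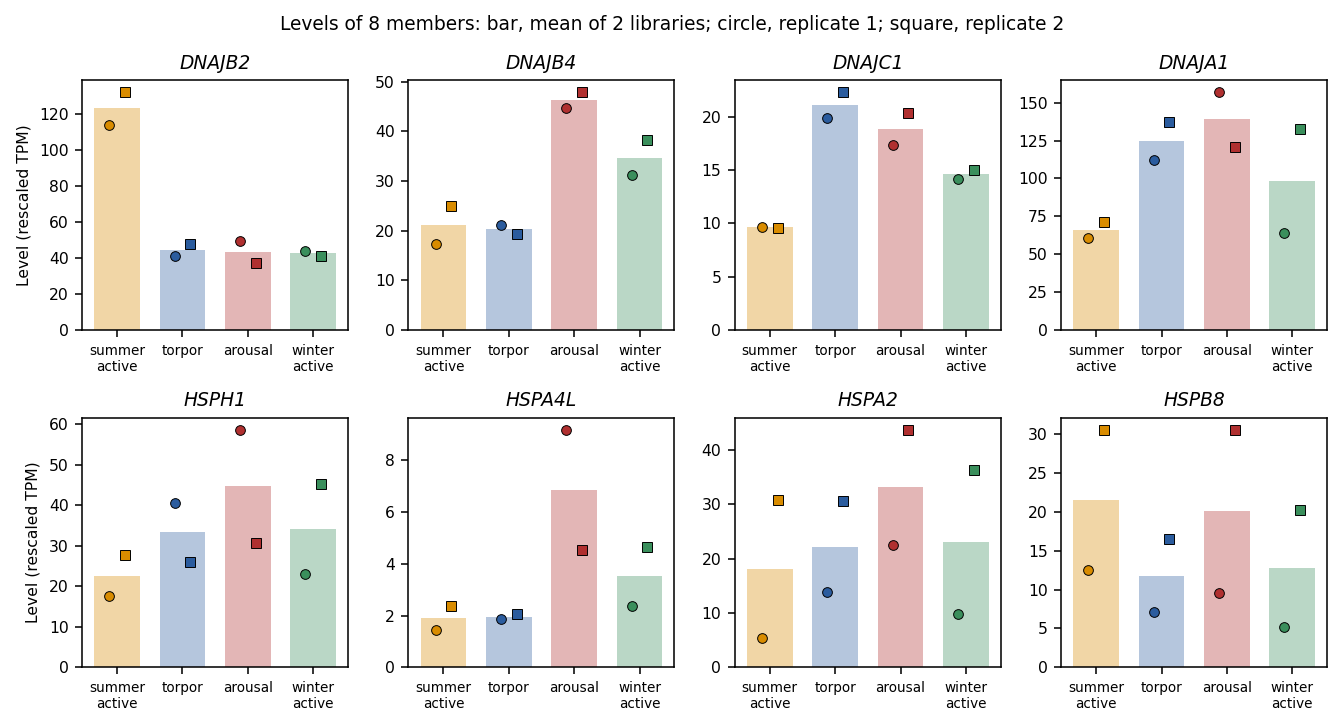
Bars are means of 2 libraries, circles replicate 1 and squares replicate 2, for 8 members in rescaled TPM, with the 4 states in the order summer active, torpor, arousal and winter active and each vertical axis starting at 0. DNAJB2, DNAJB4 and DNAJC1 have close replicates, whereas HSPH1, HSPA4L, HSPA2 and HSPB8 have replicates that differ widely in at least 1 state.

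Torpor against summer active asks what the chaperone system looked like in hibernating spleen. Of the 54 members, 0 were called higher and 1, DNAJB2, was called lower, where 0.0738% and 0.487% of all tested genes were (0.561% in either direction). At an unadjusted limma p under 0.05, 8 members passed, against 16.0% of all genes. The median log2 difference of the members was 0.06 and that of all tested genes was -0.06. Both torpor libraries lay above both summer libraries for 16 members and below both for 7, where 20.4% and 26.0% of all genes did so.

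The libraries taken 2 h after capture were also set against torpor. No member and no gene was called by limma (0% of all genes), and 5 members had an unadjusted p under 0.05, where 19.7% of all genes did. The smallest adjusted p among the members was that of DNAJB4, 0.142. The members' median was 0.20 and the all-gene median was 0.11, and 19 members were higher without overlap and 14 lower, against 31.9% and 22.2% of all genes.

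Arousal against summer active held most of the calls in the table, 5.52% of all genes, and most of those among the members. Of the 54 members, 2 were called higher, where 2.39% of all genes were, and 1 was called lower, where 3.14% were. At an unadjusted p under 0.05 limma gave 18 members, against 28.9% of all genes. Closest to the threshold without passing were DNAJC16 (adjusted p = 0.052), DNAJC17 (0.0745), DNAJA4 (0.0773) and HSPA4L (0.0791). The members' median was 0.23 and the all-gene median was 0.08. The groups did not overlap for 21 members higher and 9 lower in arousal, against 32.0% and 25.3% of all genes.

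Winter active against torpor and against summer active showed the state a day after capture. Against torpor limma called no member and no gene (0%), and 7 members had an unadjusted p under 0.05, against 13.2% of all genes, with the smallest adjusted p, 0.274, for DNAJC12 and DNAJC2. Against summer active 1 member was called, DNAJB2, lower, where 0.894% of all genes were (1.03% in either direction), and 6 had an unadjusted p under 0.05, against 14.8%. Winter active against arousal gave no call among members or genes (0%), and 1 member, HSPB2, had an unadjusted p under 0.05, against 5.45% of all genes. The members' medians were 0.00, 0.13 and -0.15 in these 3 comparisons, against all-gene medians of 0.08, 0.05 and -0.04. Without overlap, 11 members were higher and 11 lower against torpor (29.6% and 21.3% of all genes), 16 and 9 against summer active (27.2% and 21.9%), and 6 and 14 against arousal (18.1% and 21.3%).

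**Figure D4:**
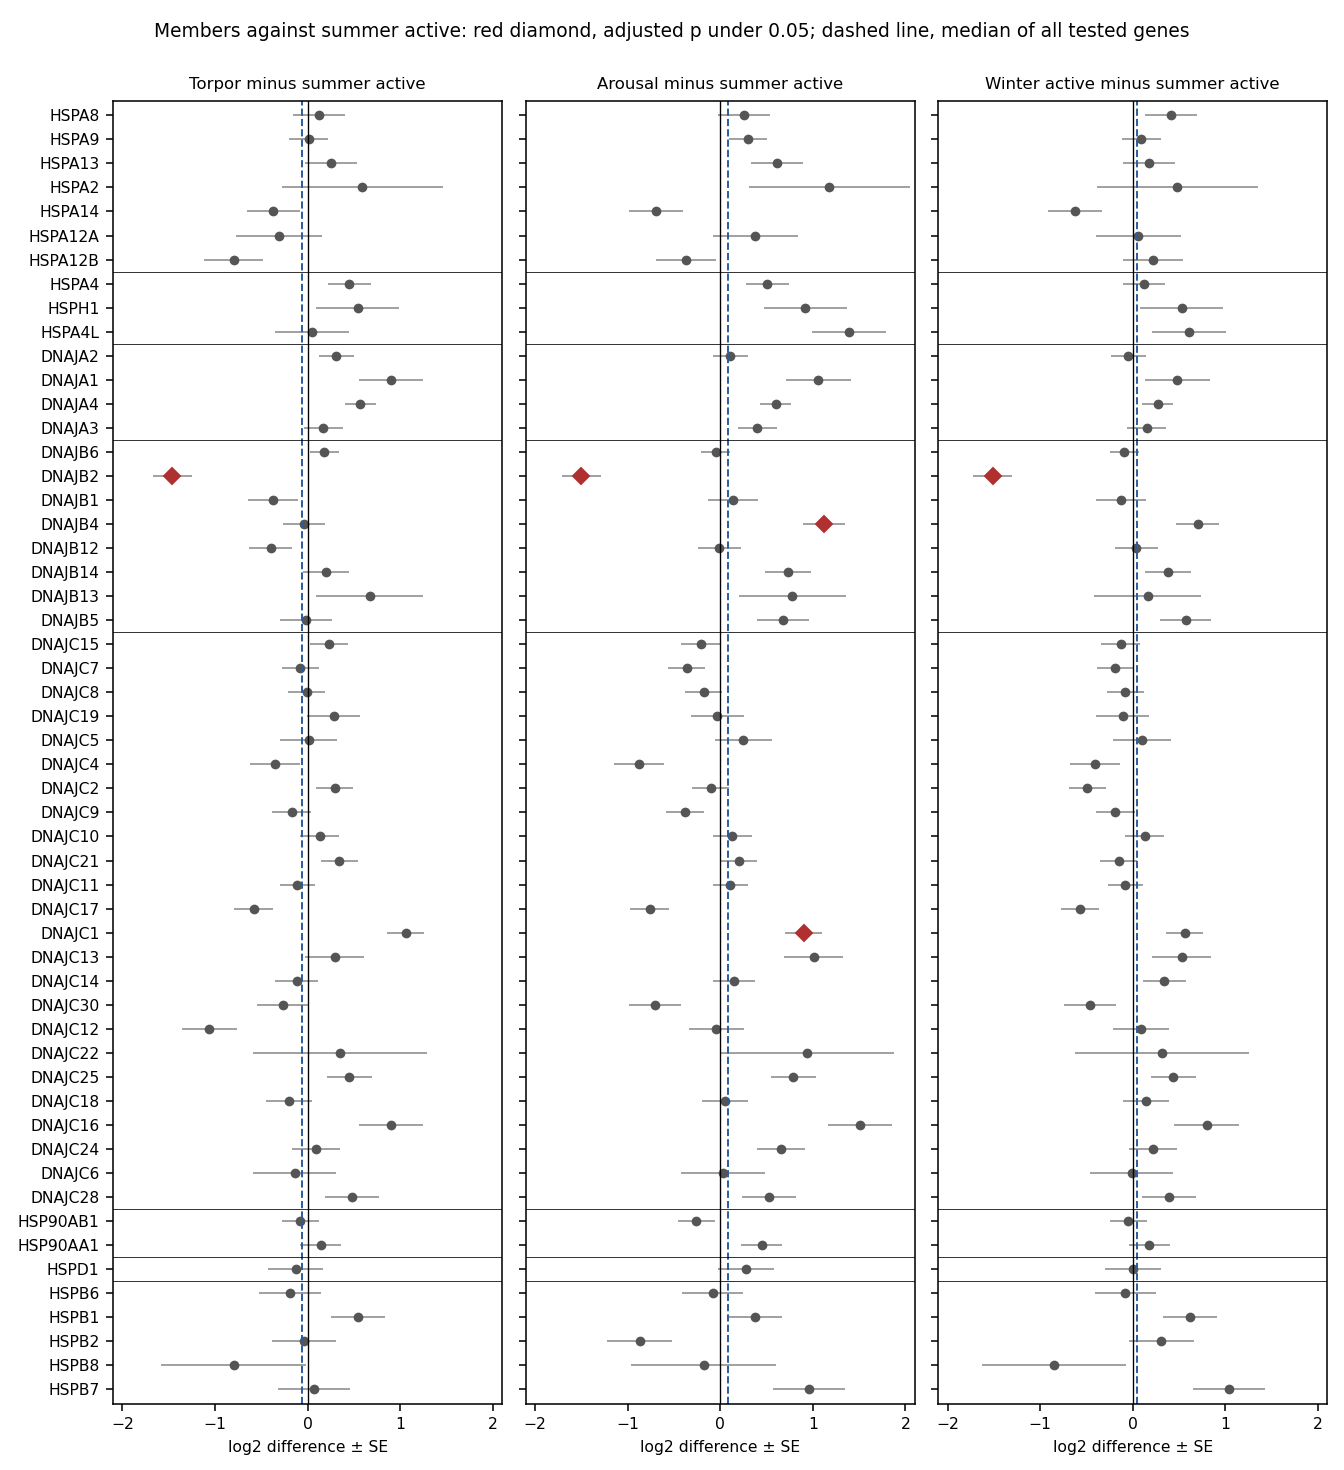
Points are log2 differences of the 54 members in torpor, arousal and winter active, each minus summer active, with bars of 1 SE from limma and a dashed line at the median of all tested genes. Red diamonds mark the 5 differences with an adjusted p under 0.05; the 3 panels share the summer active libraries.

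The position of the members relative to 0 depended on how the columns were scaled. The deposited columns sum to between 745098 in arousal 1 and 1331820 in summer active 2. With every column set to 1000000, the all-gene median moved to 0.76 in arousal against summer active, and 32 members were then called higher and 1 lower, along with 45.0% of all genes. The members' median less the all-gene median was 0.20 under that scaling and 0.14 as deposited. The all-gene median in the other 5 comparisons was then 0.29 for torpor and 0.55 for winter active against summer active, 0.45 for arousal and 0.24 for winter active against torpor, and -0.22 for winter active against arousal. Signs turned with it for 17 of 54 members in torpor against summer active and 14 of 54 in arousal against summer active. Not all of these differences were small, as HSPA14 was at -0.69 in arousal against summer active as deposited. DNAJB2 stayed lower and DNAJB4 and DNAJC1 higher in arousal against summer active under every scaling tried, but with median-of-ratios scaling DNAJC1 was not called (limma adjusted p = 0.0502). In torpor against summer active DNAJB2 had a difference of -1.07 with columns set to 1000000 and was no longer called (limma adjusted p = 0.0807), while DNAJC1 was called there.

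Among HSP70 genes, which form the core of the cycle, HSPA8 had the highest level of all members. HSPA8, the constitutive cytosolic HSP70, was at 483 and 600 in summer active, 500 and 689 in torpor, 809 and 517 in arousal and 700 and 728 in winter active. Both winter active libraries lay above summer active and torpor, arousal spanned nearly the whole range, and winter active against summer active gave 0.41 (SE 0.28, limma adjusted p = 0.516). HSPA9, the mitochondrial HSP70, stayed between 58.3 and 87.3, with both arousal libraries, 79.7 and 87.3, above the other 6. HSPA13, an HSP70 without the client-binding domain, was at 40.1 and 66.3 in arousal and between 29.9 and 43.5 elsewhere. HSPA14, which sits on ribosomes with DNAJC2 in human cells, was at 12.9 and 14.8 in arousal, against 17.6 and 29.9 in summer active (-0.69, adjusted p = 0.161), and this sign turned when columns were set to 1000000.

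HSPA2, best known from germ cells, differed more between the replicates of a state than between the state means. It was at 5.48 and 30.9 in summer active, 13.8 and 30.7 in torpor, 22.6 and 43.8 in arousal and 9.87 and 36.3 in winter active. Replicate 2 was the higher in every state, as it was for 11.5% of all genes, and the log2 differences of HSPA2 had an SE of 0.87. HSPA12B, a distant HSP70 relative expressed in endothelium, was at 4.91 and 4.24 in winter active, against 1.45 and 2.08 in torpor (1.02, limma adjusted p = 0.31). No HSP70 member was called in any comparison.

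The 3 HSP110 genes, exchange factors of HSP70, were all higher in arousal than in summer active without overlap, and none passed; 32.0% of all genes were higher without overlap in that comparison. Their median log2 difference was 0.92 as deposited and 0.86 to 1.66 under the other 3 scalings. The all-gene median was 0.08 as deposited and 0.03 to 0.76 under those scalings. All 3 genes were higher under each, but a scaling shifts all genes of a library together, so this adds no support. HSPH1 was at 17.5 and 27.8 in summer active, 40.5 and 26.1 in torpor, 58.7 and 30.8 in arousal and 23.1 and 45.3 in winter active. Arousal 1 stood above every other library for HSPH1, and arousal 2 lay within the range of torpor and winter active (arousal against summer active 0.92, limma adjusted p = 0.218). HSPA4L was at 1.43 and 2.37 in summer active, 1.87 and 2.06 in torpor, 9.19 and 4.52 in arousal and 2.38 and 4.65 in winter active. Its arousal libraries lay above both summer and both torpor libraries, and arousal 2 lay within the winter active range (against summer active 1.39, adjusted p = 0.0791). HSPA4 was at 88.4 and 61.1 in arousal, against 46.9 and 56.2 in summer active (0.51, adjusted p = 0.185).

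The 4 J-domain A genes, whose proteins deliver unfolded clients to HSP70, were each higher in torpor than in summer active without overlap, and none was called; 20.4% of all genes were higher without overlap in that comparison. The summed level of 6 pancreatic acinar markers was 1416 and 347 in torpor, against 17.1 and 14.3 in summer active, and its part in these values was not tested. The median log2 difference of the 4 genes was 0.44 as deposited and 0.48 to 0.82 under the other 3 scalings. The all-gene median was -0.06 as deposited and -0.02 to 0.29 under those scalings. All 4 genes were higher under each, but a scaling shifts all genes of a library together, so this adds no support. DNAJA1, a cytosolic co-chaperone, was at 60.5 and 71.5 in summer active, 112 and 137 in torpor, 157 and 121 in arousal and 63.7 and 133 in winter active. Summer active and winter active 1 formed the low values of DNAJA1, and winter active 2 stood with torpor and arousal (torpor against summer active 0.90, limma adjusted p = 0.269). DNAJA4 was at 28.9 and 30.2 in summer active, 44.8 and 43.7 in torpor, 42.7 and 47.8 in arousal and 36.7 and 35 in winter active. Its 4 states had close replicates, with torpor and arousal overlapping each other at the top and winter active between them and summer active (arousal against summer active 0.60, adjusted p = 0.0773). DNAJA2 had 129 and 136 in the torpor libraries, against 94.4 and 121 in summer active (0.31, adjusted p = 0.475). DNAJA3, the mitochondrial member, had 33.7 and 31.5 in the torpor libraries, against 26.8 and 30.9 in summer active (0.17, adjusted p = 0.718).

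Among the other J-domain B genes, DNAJB1 is the classic heat-inducible partner of HSP70. It was at 51.4 and 56.3 in summer active, 48.1 and 35.8 in torpor, 76.1 and 46 in arousal and 47.8 and 50.1 in winter active. Only arousal 1 stood apart, and the arousal difference from torpor was 0.50 (limma adjusted p = 0.335). DNAJB5 was at 4.27 and 3.94 in arousal and 3.38 and 4.1 in winter active, against 2.32 and 1.95 in torpor (0.70 for arousal, adjusted p = 0.232). DNAJB6, a suppressor of protein aggregation, was among the steadiest members, between 97.6 and 123 in all 8 libraries.

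The 24 J-domain C genes have varied roles, and as deposited 14 were higher and 10 lower in arousal against summer active, counts that depend on the scaling. DNAJC16, of the endoplasmic reticulum, had the widest range of state means among all members and was at 1.6 and 1.83 in summer active, 2.91 and 5.6 in torpor, 8.18 and 5.53 in arousal and 3.06 and 4.48 in winter active. Both summer libraries were the lowest, and arousal 2 overlapped torpor (arousal against summer active 1.51, SE 0.35, limma adjusted p = 0.052). DNAJC12, a partner of aromatic amino acid hydroxylases, was at 5.94 and 9.43 in summer active, 3.79 and 2.49 in torpor, 6.49 and 8.15 in arousal and 8.38 and 7.75 in winter active. Both torpor libraries were the lowest and the other states overlapped, with differences of -1.06 for torpor against summer active (adjusted p = 0.169) and 1.15 for winter active against torpor (adjusted p = 0.274).

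DNAJC17, linked to the spliceosome, was at 14.3 and 17.1 in arousal, against 24.5 and 30.3 in summer active (-0.76, limma adjusted p = 0.0745), and the other November libraries lay between 16.4 and 19.9. DNAJC4 was at 31.3 and 26.5 in arousal, against 66.4 and 43.3 in summer active (-0.88, adjusted p = 0.0932). DNAJC2, the ribosome partner of HSPA14, was at 25.1 and 31.2 in winter active, against 48.8 and 48.8 in torpor (-0.78, adjusted p = 0.274). Against summer active its winter active difference was -0.49 (adjusted p = 0.322), which turned to 0.06 with columns set to 1000000. DNAJC21, a factor of ribosome assembly, was at 16 and 19.7 in winter active, against 24.8 and 25.9 in torpor (-0.49, adjusted p = 0.366).

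Other named J-domain C genes were nearly flat or split by replicate. DNAJC15, a mitochondrial inner membrane protein with the third highest level of all members, was at 105 and 152 in arousal, against 174 and 168 in torpor (-0.43, limma adjusted p = 0.299). DNAJC10, a disulfide reductase of the endoplasmic reticulum, had the smallest range of state means and stayed between 25.7 and 34.2. DNAJC8, a spliceosome-associated member, ran from 88.6 to 120 and DNAJC7, a co-chaperone shared by HSP70 and HSP90, from 78.7 to 124. DNAJC5, the cysteine string protein of secretory vesicles, ran from 49.4 to 95.3, lowest in summer active 2 and highest in arousal 1. DNAJC6, auxilin of clathrin uncoating, was between 1.2 and 3.04, and replicate 2 was the higher in every state. The 15 members not named by the rule had means of 1.6 to 89.7 and log2 differences of -0.70 to 1.01, with no adjusted p under 0.0836.

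Of the 2 HSP90 genes, HSP90AB1, the constitutive form, was at 296 and 293 in arousal, against 303 and 413 in summer active (-0.26, limma adjusted p = 0.411). HSP90AA1, the inducible form, was at 118 and 100 in arousal, against 68.9 and 91.2 in summer active (0.45, adjusted p = 0.225). Their signs were thus opposite as deposited, and both were positive with columns set to 1000000. HSPD1, the mitochondrial chaperonin, was at 53.6 and 96.9 in summer active, 67.2 and 64.4 in torpor, 92 and 83.2 in arousal and 60.4 and 85.7 in winter active. The summer libraries spanned all the others, and no comparison of HSPD1 passed (smallest adjusted p 0.471, arousal against torpor).

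Several small heat shock genes are best known from muscle, and in spleen some of them differed widely between replicates. HSPB8, the partner of BAG3 in clearing misfolded proteins, was at 12.5 and 30.6 in summer active, 7.06 and 16.5 in torpor, 9.52 and 30.6 in arousal and 5.16 and 20.3 in winter active. Replicate 2 was the higher in each state, and all states overlapped. HSPB2 was at 39.8 and 24.9 in summer active, 28.8 and 32.3 in torpor, 14 and 20.1 in arousal and 52.5 and 29.2 in winter active. Both arousal libraries were the lowest, and winter active against arousal gave 1.18 (limma adjusted p = 0.825). The gene beside HSPB2 in the annotation, the small heat shock relative CRYAB, also peaked in winter active 1, at 590, and was at 214 and 154 in arousal and 226 to 310 elsewhere.

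HSPB7, a small heat shock protein of heart and skeletal muscle, was at 0.8 and 2 in summer active, 1.41 and 1.45 in torpor, 2.33 and 5.15 in arousal and 3.78 and 3.79 in winter active. Both November states after capture lay above torpor and summer active (winter active against summer active 1.04, limma adjusted p = 0.289). HSPB1 was at 34 and 55.2 in torpor, 45.8 and 32.5 in arousal and 51.7 and 40.6 in winter active, against 30 and 29 in summer active. All 6 November libraries lay above both summer libraries, and none of the 3 differences, 0.54, 0.38 and 0.62, passed (adjusted p = 0.408, 0.411 and 0.37). HSPB6 had a small range of state means and ran from 44.1 to 86.5, with both extremes in arousal. The summed level of 11 smooth and striated muscle markers, 9 of them with a mean of at least 1, was 878 and 501 in summer active, 670 and 772 in torpor, 586 and 1067 in arousal and 944 and 983 in winter active, and its part in these values was not tested.

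Both arousal libraries held many of the peaks. Arousal 1 was the highest of the 8 libraries for 17 of 54 members (31.5%), where it was for 20.2% of all genes. Arousal 2 was the highest for 12 members (22.2%), where it was for 14.8% of all genes. Summer active 1 was the lowest for 21 members (38.9%), where it was for 13.8% of all genes. Winter active 1 was the highest for 3 members and torpor 2 for 5, against 7.32% and 7.59% of all genes. Arousal 2 was above arousal 1 for other members, among them HSPA13 (40.1 and 66.3 in arousal 1 and 2), HSPA9 (79.7 and 87.3), DNAJB4 (44.7 and 47.9) and DNAJA4 (42.7 and 47.8). Arousal 1 led arousal 2 for HSPA8 (809 and 517), HSPH1 (58.7 and 30.8), DNAJB1 (76.1 and 46), HSPA4L (9.19 and 4.52), HSPA4 (88.4 and 61.1) and DNAJA1 (157 and 121). In winter active the order was the other way, with 63.7 and 133 for DNAJA1 and 23.1 and 45.3 for HSPH1 in replicates 1 and 2. By state mean, arousal was the highest of the 4 states for 26 members (48.1%), against 35.3% of all genes, and summer active was the lowest for 21 (38.9%), against 29.5%. Replicate 2 exceeded replicate 1 in all 4 states for 7 members (13.0%, against 11.5% of all genes), namely HSPA9, HSPA13, HSPB8, HSPA2, HSPA12A, DNAJC6 and HSPB7. DNAJC14 and DNAJB13 showed the reverse (3.70%, against 7.42% of all genes).

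A list of 43 other genes was also read, all of which passed the minimum level. It holds co-chaperones and regulators of these families, and subunits of the chaperonin TRiC and of prefoldin. By limma none was called in 5 of the 6 comparisons, where 2 to 6 of them had an unadjusted p under 0.05 and 5.45% to 19.7% of all genes did. In arousal against summer active 2 were called, both lower, where 3.14% of all genes were. FKBP8, an HSP90 co-chaperone of the mitochondrial outer membrane, fell to 195 and 200 in arousal, against 483 and 346 in summer active (-1.05, SE 0.22, limma adjusted p = 0.0442). PFDN1, a prefoldin subunit that hands new actin and tubulin to the chaperonin TRiC, fell to 61.1 and 85.8, against 152 and 178 (-1.17, SE 0.24, adjusted p = 0.042). The erythroid and B cell sums given above were also lower in arousal than in summer active. Their part in the falls of FKBP8 and PFDN1 was not tested. Each call was lost in all 8 fits without a library (adjusted p 0.0725 to 0.159 for FKBP8 and 0.0602 to 0.157 for PFDN1). With columns set to 1000000 the differences were -0.28 and -0.41 and neither was called, and both calls were also lost with no filter on low values (adjusted p = 0.0656 and 0.0624) and with only the 2 states fitted (0.145 and 0.128). As deposited, the median across the 43 genes was -0.02 in arousal against summer active, with 21 higher and 22 lower, against an all-gene median of 0.08. The groups in the list differed. Medians were 0.27 for HSP70 exchange factors and co-chaperones and 0.10 for HSP90 co-chaperones. They were -0.11 for TRiC, -0.14 for heat shock factors and their binding protein, and -0.23 for prefoldin.

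HSF1, the main heat shock factor, stayed between 25.1 and 39.2 in all libraries. HSF2, another heat shock factor, was at 11.3 and 10.8 in summer active, 7.7 and 4.8 in torpor, 12.8 and 13.3 in arousal and 11.9 and 14.3 in winter active. GRPEL2, an exchange factor of mitochondrial HSP70, was at 5.7 and 7.62 in summer active, 3.62 and 2.01 in torpor, 6.66 and 6.62 in arousal and 5.84 and 7.5 in winter active. Both genes were lowest in torpor with no overlap, as DNAJC12 was. Torpor had the lowest state mean for 31.2% of all genes, and the share without overlap is not given here. Neither HSF2 nor GRPEL2 passed in arousal against torpor (0.98 and 1.03, limma adjusted p = 0.16 and 0.174). STIP1, which joins HSP70 to HSP90, was at 120 and 70.6 in arousal, against 51.7 and 56 in summer active (0.77, adjusted p = 0.169), and its winter active libraries were at 53.5 and 90.2, with replicate 1 the lower as for HSPH1 and DNAJA1.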

How the data were processed

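The deposited table holds TPM per gene in 8 spleen libraries, which the authors rescaled between libraries, so each value is a signal whose columns sum to between 745098 and 1331820. The authors used kallisto 0.46.2 and sleuth 0.30.0, per the submitters' processing notes. Neither the reference transcriptome nor the rescaling step is named in the sources used here. All 19652 gene identifiers matched the RefSeq annotation, used for names and neighbours only. Sequencing depth is unknown, so no counting interval can be given.

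Groups and replicate numbers came from the sample titles. One limma 3.58.1 model (R 4.3.3) was fitted to log2(value + 1) of 13542 genes with an 8-library mean of at least 1, over all 8 libraries and 4 states, with a trended prior (4 residual and 3.29 prior degrees of freedom). It gave 6 pairwise comparisons and a moderated F, adjusted by Benjamini-Hochberg over all genes. The test was planned for TPM and kept for the rescaled values. In simulated data with known torpor minus summer active differences, it called 12.6% of log2 differences of 1 and 63.6% of those of 2. Of its calls there, 4.83% were false. The members, the 43 partner genes and the marker lists were chosen with earlier results of these data known. Members named are those of a list of 32 chaperones, of which 26 are members, those called, and those of smallest p or extreme range of state means. Alternatives are another pseudocount, filter, scaling or set of samples, a replicate block, and each library left out.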

Additional observations from a re-analysis of the deposited data

How the results depend on the processing

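With 2 bats a state and unknown depth, calls near the threshold moved with most choices. Members called in torpor, winter active and arousal, each against summer active, numbered 1, 1 and 3 as reported. With columns set to 1000000 the counts in winter active and arousal were 4 and 33, where 5.75% and 45.0% of all genes were called. Arousal against torpor then gave 1, where 3.29% were. The 4-state test gave 17, a count whose share over all genes is not given here. Columns set to 1000000 without the 10 highest genes were an alternative chosen after seeing the data. Torpor and winter active then gave 0, where 0.458% and 0.753% of all genes were called. Arousal gave 5, where 8.41% of all genes were called, and the 4-state test gave 0. Fitting only the 2 states compared gave 0 in all 3. With no filter on low values arousal gave 1, where 1.55% of all genes were called, and the 4-state test gave 0. Leaving out each library in turn gave 0 to 1 in each of the 3, and 0 in the 4-state test; in the fits where a state kept 1 library, that library was assumed to vary like the others.

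Same-numbered libraries deviated together in 4 of 6 state pairs only (correlations of -0.191 to 0.322), so the numbers were not taken as pairing. The replicate block gave 0 calls in torpor against summer active (DNAJB2 adjusted p = 0.0561 by limma) and 0 in the 4-state test.

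The members' median less the all-gene median was 0.16 in torpor against summer active with pseudocount 0.1, and 0.15 in arousal against torpor with no filter. In arousal against summer active it was 0.21 with no filter, 0.06 with a mean of at least 5 and 0.20 with columns set to 1000000. Without each library in turn it ran from 0.08 to 0.25 in torpor, from 0.04 to 0.20 in arousal and from -0.01 to 0.11 in winter active, each against summer active. It ran from -0.02 to 0.09 in arousal and from -0.10 to 0.00 in winter active, each against torpor, and from -0.18 to 0.00 in winter active against arousal. DNAJC2 in winter active against summer active turned to 0.06 (limma adjusted p = 0.845) with columns set to 1000000. The causes were not tested.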

Other observations

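DNAJC22 had the widest spread over single libraries of all 54 members, 19.3-fold. It was at 8.9 and 0.975 in summer active, 4.78 and 4.52 in torpor, 2.61 and 18.8 in arousal and 6.23 and 3.19 in winter active. Its highest library was arousal 2, which also had the highest hepatocyte marker sum, 16983; the part of that in the value was not tested.

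DNAJB13, a J-domain protein of sperm tails and motile cilia, was at 9.3 and 4.1 in summer active, 10.7 and 10.4 in torpor, 20.9 and 6.04 in arousal and 9.56 and 5.19 in winter active. Replicate 1 was the higher in every state. The 4 ciliated cell markers summed to between 1.02 and 2.23 in the 8 libraries, and each had a mean under 1. Its neighbour in the annotation, UCP2, was at 3163 and 1576 in summer active, 2463 and 2003 in torpor, 2742 and 1369 in arousal and 2113 and 1376 in winter active, with replicate 1 the higher in every state as well. Whether reads of one gene reached the other was not tested. DNAJC22 and DNAJB13 were singled out after their values were seen.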
